A study of Mus musculus with 10 samples.

Results

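The 10 genes studied here belong to the TNF superfamily and encode 5 ligands (Tnf, Tnfsf9, Tnfsf10, Tnfsf15 and Tnfsf13b) and 5 receptors (Tnfrsf1a, Tnfrsf1b, Fas, Cd40 and Tnfrsf9). They were followed in mouse bone marrow–derived macrophages (BMDMs). The members were taken by name from a table of 55573 genes, of which 11978 had at least 1 CPM (reads on a gene, scaled so that every library has the same total) in at least 2 libraries and were tested, all 10 members among them. The BMDMs came from wild-type female C57BL/6 mice, were cultured with MCSF, and were sampled 4 hours into treatment, with 2 libraries for each of 5 groups. One group was given vehicle, one 5 μg polyU in DOTAP, one PNPi+dG/rG without RNA, one the same mixture with that amount of polyU (PNPi+dG/rG+polyU), and one 1 ng/mL R848, a synthetic imidazoquinoline that binds TLR7. PolyU is a single-stranded RNA of uridines that DOTAP, a lipid, carries into cells, and the PNPi+dG/rG mixture combined ulodesine at 1 μM, which blocks purine nucleoside phosphorylase (PNP), with deoxyguanosine (dG) and guanosine (rG), each at 5 μM. The study asked how natural TLR7 ligands, an RNA and a guanosine kept from breakdown by PNP inhibition, compare with a synthetic ligand. DOTAP is named in the labels only for groups given polyU, so effects of this RNA and of its lipid cannot be told apart. The labels call the 2 libraries of a group biological replicates but do not say whether they came from separate mice or cultures. The p-values thus measure the spread between these libraries, which may not reflect the spread between mice.

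TNF superfamily ligands are proteins of the cell surface, some of which are cut free, and they act as trimers on receptors of the matching receptor family. Receptors with a death domain, such as Tnfrsf1a and Fas, can recruit caspase-8 and start cell death, whereas Tnfrsf1b, Cd40 and Tnfrsf9 bind TRAF proteins and signal to NF-κB. Macrophages are a main source of TNF after Toll-like receptor stimulation, and several genes of the family are targets of NF-κB or of interferon.

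The libraries held 14128128 to 38392592 reads on genes, so that 3 reads corresponded to 0.0781 to 0.212 CPM; PNPi+dG/rG was sequenced deepest and PNPi+dG/rG+polyU least. The 7 macrophage markers, among them Adgre1, Cd68, Lyz2 and Csf1r, summed to between 12957 and 17552 CPM in every library, whereas the lists for B cells, NK cells, dendritic cells and neutrophils summed to at most 1.91 CPM. The T cell list reached 5.95 CPM, nearly all of it Trac, and the endothelial list, carried by Kdr and Vwf while Cdh5 stayed at or below 2.5 CPM, summed to 246 and 240 CPM in vehicle, 143 in both libraries of PNPi+dG/rG+polyU, and 64.5 and 69.8 in R848; its part in the results was not tested. The 4 fibroblast markers summed to 132 and 139 CPM in the R848 libraries, to 3.61 and 4.85 CPM in PNPi+dG/rG+polyU, and to at most 1.02 CPM in the other 6 libraries. Both R848 libraries carried them, so no R848 result can be given without them, and their part in the R848 values below was not tested. In bulk RNA, fewer cells of a type and less RNA per cell cannot be told apart.

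RefSeq promoters of GRCm38.p6 were found for 8 of the 10 members, as 10 windows of 250 bases before a transcription start. They were searched on both strands for the κB consensus, the motif bound by NF-κB, and for GAAANNGAAA, the core of the interferon-stimulated response element (ISRE). A κB match was found in 1 member, Tnfrsf9, and an ISRE core in 2, Tnfrsf1b and Tnfsf13b; of 32851 mouse promoter windows of the same length, 7.251% held the former and 2.977% the latter. The 3 windows with a match are shown with that of Tnf, the ligand with the highest level after stimulation, in which neither motif occurs in these bases. Capitals mark the matches, and the 3 overlapping κB matches of Tnfrsf9, on both strands, form 1 run of capitals 43 to 33 bases before the start. The windows, each read 5′ to 3′ along the strand of its gene, are chr17:35202008-35202257 for Tnf (minus strand), chr4:150927749-150927998 for a downstream start of Tnfrsf9 (plus strand), chr4:145246871-145247120 for Tnfrsf1b (minus strand) and chr8:10006383-10006632 for a downstream start of Tnfsf13b (plus strand). The windows before the upstream starts of Tnfrsf9 and Tnfsf13b held neither motif.
Tnf: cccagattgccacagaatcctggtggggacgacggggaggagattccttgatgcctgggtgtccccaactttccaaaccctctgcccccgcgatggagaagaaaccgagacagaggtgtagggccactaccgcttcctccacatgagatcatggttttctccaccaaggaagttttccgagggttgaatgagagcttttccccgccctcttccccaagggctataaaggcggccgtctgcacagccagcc
Tnfrsf9: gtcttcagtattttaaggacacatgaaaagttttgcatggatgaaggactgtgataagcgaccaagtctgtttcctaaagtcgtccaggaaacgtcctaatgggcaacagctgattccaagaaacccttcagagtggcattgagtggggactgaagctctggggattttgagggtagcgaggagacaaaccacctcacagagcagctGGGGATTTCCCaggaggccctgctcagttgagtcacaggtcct
Tnfrsf1b: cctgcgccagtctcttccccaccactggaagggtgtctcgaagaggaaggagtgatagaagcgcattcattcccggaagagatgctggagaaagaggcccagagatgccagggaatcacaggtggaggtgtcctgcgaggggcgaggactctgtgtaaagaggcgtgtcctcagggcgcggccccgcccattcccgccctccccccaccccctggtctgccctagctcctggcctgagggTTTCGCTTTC
Tnfsf13b: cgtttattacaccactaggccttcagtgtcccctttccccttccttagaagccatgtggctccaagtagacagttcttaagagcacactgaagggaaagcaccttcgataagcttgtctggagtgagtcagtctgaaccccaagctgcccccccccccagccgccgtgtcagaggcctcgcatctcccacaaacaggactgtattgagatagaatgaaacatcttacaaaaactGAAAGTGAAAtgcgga
The ISRE core of Tnfrsf1b lay on the opposite strand, 10 to 1 bases before the start, and that of Tnfsf13b 16 to 7 bases before it. A match describes these letters only and says nothing of binding.

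**Figure D1:**
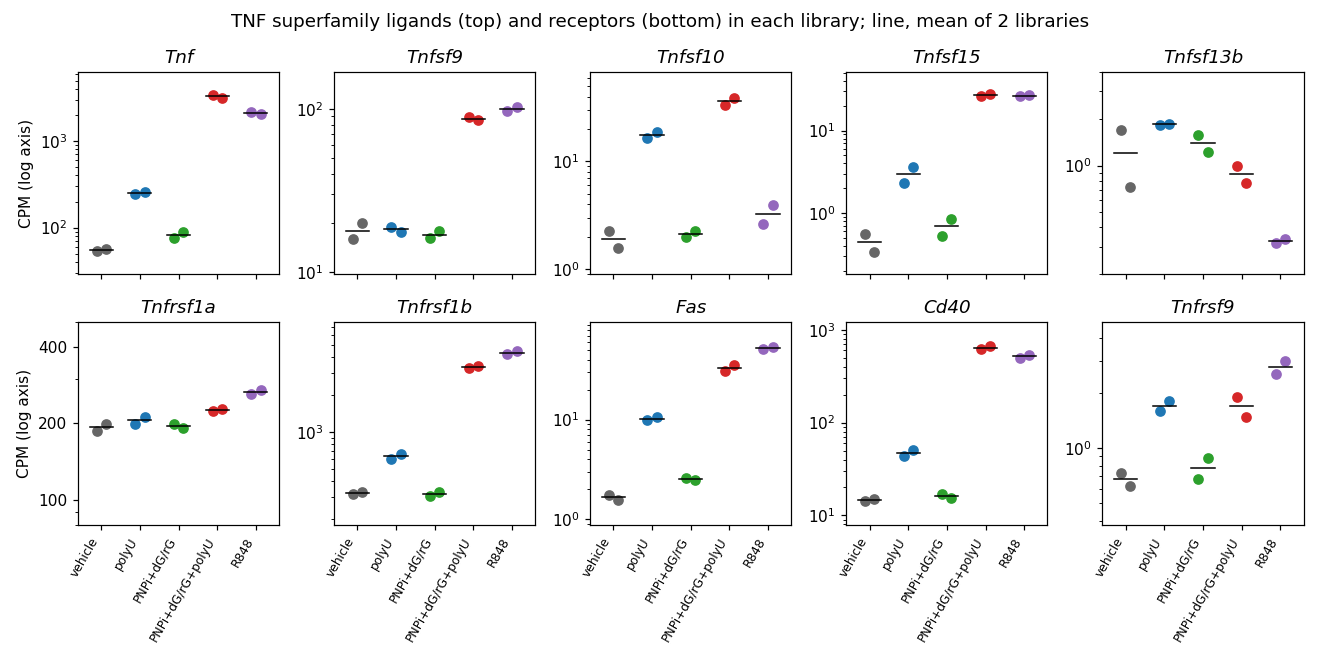
CPM of the 5 ligands (top row) and 5 receptors (bottom row) in each of the 10 libraries, on log axes; points are libraries and the line is the mean of 2. Tnf and Cd40 lie highest in PNPi+dG/rG+polyU and next in R848, Tnfsf10 is high in both groups that held polyU and low in R848, and Tnfsf13b is lowest in R848.

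Compared per length, as CPM per kilobase of annotated exons, the 2 TNF receptors led the family in vehicle-treated BMDMs, with 84.5 for Tnfrsf1b and 74.5 for Tnfrsf1a, followed by Tnf at 33.4, Tnfsf9 at 13.9 and Cd40 at 4.34. The other 5 members were below 1, and in that low range Tnfrsf9, Tnfsf13b and Tnfsf15, neighbours in the order, overlapped between libraries. After PNPi+dG/rG+polyU and after R848 the order began with Tnf (2004 and 1291 CPM per kilobase), Tnfrsf1b (869 and 1140) and Cd40 (189 and 152), without overlap between neighbours. Tnfrsf1a, second in vehicle, came after Cd40 in both, and Tnfsf13b was last in both.

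All calls below are from limma on log2 of the deposited values, fitted to all 11978 genes and adjusted by Benjamini-Hochberg, and a gene was called at an adjusted p under 0.05. The members and lists were chosen with earlier results of these data known. Their counts, here and below, thus describe the chosen genes and are no test of the family. Of the 10 members, 7 were called higher and 0 lower in polyU than in vehicle. Of all tested genes, 20.6% were called higher and 18.7% lower there. PNPi+dG/rG alone gave 2 members higher and 0 lower, against 0.409% and 0.392% of all genes. PNPi+dG/rG+polyU left 9 members higher and 0 lower than vehicle, against 22.2% and 46.7% of all genes. For R848 these were 9 higher and 1 lower, against 19.2% and 62.9%. The median log2 fold change over the members was 1.50, 0.18, 3.81 and 3.12 in these 4 comparisons, and over all tested genes it was 0.02, 0.02, -0.22 and -0.50. These comparisons share the vehicle libraries, so their member counts are not independent of each other. Tnfsf15 and Tnfrsf9 were below 1 CPM in vehicle and in PNPi+dG/rG, so they passed the filter only through the groups where they were high. The filter thus favoured a rise over vehicle for these genes. Where a count of 0 is given for lower members, no member was lower at an unadjusted p under 0.05 either, and with each library centred on its median the 4 pairs of member counts were the same. The shares over all genes were not: with centring, 33.2% were called higher and 33.2% lower in PNPi+dG/rG+polyU, and 43.0% higher and 34.6% lower in R848. Centring adds 0.21 to every log2 fold change of PNPi+dG/rG+polyU against vehicle and 0.59 (1.51-fold) to every one of R848, so that Tnfrsf1a with R848, for example, goes from 0.47 to 1.06.

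**Figure D2:**
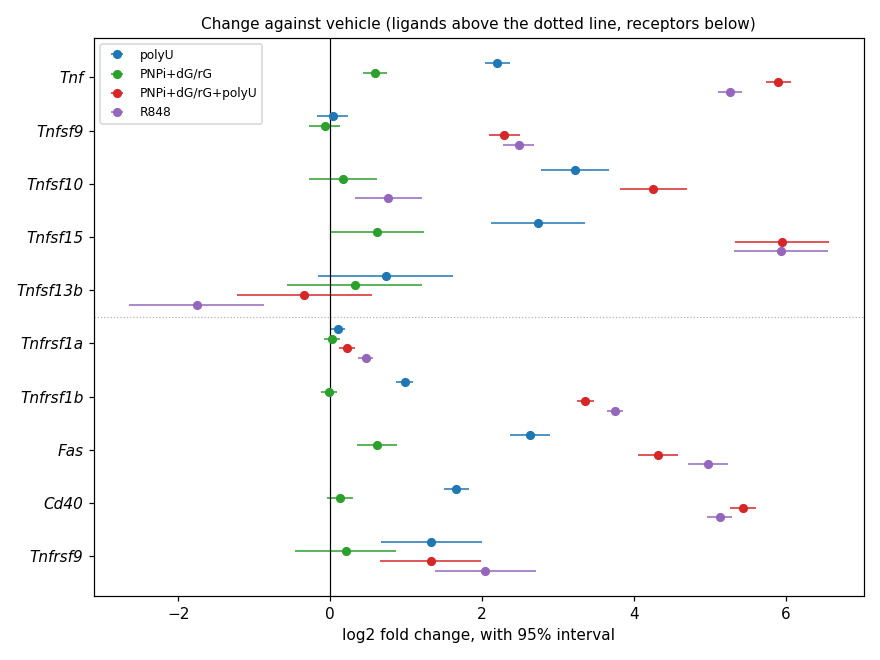
log2 fold change of each member against vehicle in the 4 treated groups (x axis), with its 95% interval from limma. Changes with PNPi+dG/rG lie between -0.07 (Tnfsf9) and 0.62 (Tnfsf15). Those with PNPi+dG/rG+polyU and R848 reach 5.95, and Tnfsf10 (4.26 against 0.77) and Tnfsf13b (-0.34 against -1.76) set these 2 groups apart.

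Tnf (ENSMUSG00000024401, chromosome 17, 35199381 to 35202007) encodes the founding ligand of the family, a cytokine of acute inflammation. It was at 53.2 and 56.4 CPM in vehicle, 75.7 and 90.0 in PNPi+dG/rG, 245 and 259 in polyU, 2167 and 2064 in R848, and 3415 and 3154 in PNPi+dG/rG+polyU. No pair of groups overlapped. It rose 4.61-fold with polyU, 38.6-fold with R848 and 59.9-fold with PNPi+dG/rG+polyU (adjusted p = 8.69e-10, 1.08e-14 and 8.66e-15), and 1.51-fold with PNPi+dG/rG (adjusted p = 0.0053), a call that was lost with plain eBayes, limma without its trend and robust options (adjusted p = 0.177).

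Tnfsf9 (ENSMUSG00000035678, chromosome 17, 57105325 to 57107757) encodes the 4-1BB ligand, which costimulates T cells and signals back into macrophages. Its levels were 15.9 and 19.9 CPM in vehicle, 18.9 and 17.4 in polyU, 16.1 and 17.7 in PNPi+dG/rG, 88.8 and 85.2 in PNPi+dG/rG+polyU, and 96.5 and 102 in R848. Vehicle, polyU and PNPi+dG/rG overlapped, and the other 2 groups lay above them, 4.89-fold and 5.59-fold over vehicle (adjusted p = 6.10e-12 and 1.12e-12). PolyU alone gave a log2 fold change of 0.03 with a 95% interval from -0.17 to 0.24 (adjusted p = 0.84). In the annotation, 192 of its 1290 exonic bases are shared with a noncoding RNA on the opposite strand, and the sources used here do not say whether reads were counted by strand.

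Tnfsf10 (ENSMUSG00000039304, chromosome 3, 27317028 to 27342427) encodes TRAIL, a death ligand and a known target of interferon. It was at 2.25 and 1.57 CPM in vehicle, 1.98 and 2.25 in PNPi+dG/rG, 2.60 and 3.92 in R848, 16.5 and 18.7 in polyU, and 33.6 and 38.5 in PNPi+dG/rG+polyU. Both groups given polyU lay above every other library. It rose 9.34-fold in polyU and 19.1-fold in PNPi+dG/rG+polyU (adjusted p = 1.19e-08 and 4.84e-11). With R848 it rose 1.70-fold (adjusted p = 0.0032), a call that was lost without vehicle replicate 2 (log2 fold change 0.51, adjusted p = 0.053) or R848 replicate 2 (0.47, adjusted p = 0.059); with centring it was 1.36 (adjusted p = 2.21e-05).

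Tnfsf15 (ENSMUSG00000050395, chromosome 4, 63727084 to 63745113) encodes TL1A, a ligand that costimulates lymphocytes. Vehicle held only 10 and 6 reads of it (0.561 and 0.337 CPM) and PNPi+dG/rG 20 and 32 (0.521 and 0.856 CPM). PolyU raised it to 2.33 and 3.60 CPM, PNPi+dG/rG+polyU to 26.1 and 27.6, and R848 to 26.1 and 27.2. The last 2 groups overlapped, at 61.7-fold and 61.2-fold over vehicle (adjusted p = 1.54e-10 and 8.35e-11).

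Tnfsf13b (ENSMUSG00000031497, chromosome 8, 10006467 to 10039072) encodes BAFF, the survival factor of B cells, and was the only member that fell against vehicle in any group. Its levels rest on few reads, with 30 and 13 in vehicle (1.68 and 0.730 CPM), 1.82 and 1.86 CPM in polyU, 1.56 and 1.23 in PNPi+dG/rG, 0.991 and 0.774 in PNPi+dG/rG+polyU, and 0.319 and 0.337 in R848. The R848 values, from 6 and 11 reads, lay below every other library. Against vehicle its log2 fold change was -1.76 with R848 (adjusted p = 0.0012) and -0.34 with PNPi+dG/rG+polyU (95% interval -1.23 to 0.55, adjusted p = 0.48).

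Tnfrsf1a (ENSMUSG00000030341, chromosome 6, 125349362 to 125362484) is the TNF receptor with a death domain, and among the 5 receptors it had the smallest changes against vehicle in PNPi+dG/rG+polyU and in R848. Its levels were 186 and 200 CPM in vehicle, 200 and 213 in polyU, 199 and 192 in PNPi+dG/rG, 224 and 227 in PNPi+dG/rG+polyU, and 261 and 271 in R848. The last 2 groups lay above vehicle by 1.17-fold and 1.38-fold (adjusted p = 0.00075 and 2.60e-07).

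Tnfrsf1b (ENSMUSG00000028599, chromosome 4, 145213463 to 145246870) is the TNF receptor that binds TRAF2 and lacks a death domain. It went from 314 and 331 CPM in vehicle, and 308 and 331 in PNPi+dG/rG, to 608 and 666 in polyU, 3243 and 3395 in PNPi+dG/rG+polyU, and 4248 and 4455 in R848. Every group but PNPi+dG/rG lay apart from vehicle, 1.97-fold, 10.3-fold and 13.5-fold higher in that order (adjusted p = 1.18e-09, 1.29e-16 and 1.12e-17).

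Fas (ENSMUSG00000024778, chromosome 19, 34290666 to 34327772) encodes the death receptor CD95. It was at 1.74 and 1.57 CPM in vehicle (31 and 28 reads), 2.58 and 2.49 in PNPi+dG/rG, 9.94 and 10.5 in polyU, 30.5 and 35.5 in PNPi+dG/rG+polyU, and 51.0 and 53.3 in R848. No pair of groups overlapped, and the rises over vehicle were 6.18-fold in polyU, 19.9-fold in PNPi+dG/rG+polyU and 31.5-fold in R848 (adjusted p = 2.93e-10, 5.23e-14 and 4.04e-15). The rise with PNPi+dG/rG was 1.53-fold (adjusted p = 0.030) and was lost in 4 other settings and without any of 5 single libraries, with adjusted p-values from 0.052 to 0.29.

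Cd40 (ENSMUSG00000017652, chromosome 2, 165055627 to 165072948) encodes the receptor through which T cells activate macrophages and other antigen-presenting cells. It was at 14.4 and 15.2 CPM in vehicle, 17.1 and 15.3 in PNPi+dG/rG, 43.4 and 50.6 in polyU, 499 and 538 in R848, and 618 and 666 in PNPi+dG/rG+polyU. It rose 3.17-fold with polyU, 35.0-fold with R848 and 43.4-fold with PNPi+dG/rG+polyU (adjusted p = 7.29e-10, 9.79e-17 and 1.66e-16).

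Tnfrsf9 (ENSMUSG00000028965, chromosome 4, 150914562 to 150946102) encodes 4-1BB, the receptor of the Tnfsf9 product, and stayed low throughout. It was at 0.730 and 0.618 CPM in vehicle (13 and 11 reads), 0.677 and 0.882 in PNPi+dG/rG, 1.59 and 1.80 in polyU, 1.91 and 1.48 in PNPi+dG/rG+polyU, and 2.55 and 3.00 in R848. The 2 groups given polyU overlapped each other, and both lay above vehicle, 2.52-fold and 2.50-fold (adjusted p = 0.0032 and 0.0015). R848 lay higher still, at 4.12-fold (adjusted p = 1.91e-05).

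What PNPi+dG/rG added to polyU was read from the comparison of PNPi+dG/rG+polyU with polyU. It gave 8 members higher and 1 lower, against 15.8% and 47.5% of all genes, with a median log2 fold change of 1.97 over the members and -0.24 over all genes. With each library centred on its median, which adds 0.25 to every log2 fold change here, 8 members were higher and 0 lower, against 30.1% and 25.3% of all genes. Cd40 rose 13.7-fold over polyU, Tnf 13.0-fold, Tnfsf15 9.26-fold, Tnfrsf1b 5.22-fold and Tnfsf9 4.79-fold (adjusted p at most 2.68e-07). Fas and Tnfsf10 rose by 3.22-fold and 2.05-fold (adjusted p = 1.03e-08 and 0.00050). Tnfrsf9 gave a log2 fold change of -0.01 with a 95% interval from -0.68 to 0.66. The smallest calls were fragile. Tnfrsf1a was 1.09-fold higher (adjusted p = 0.031), and leaving out polyU replicate 1 gave an adjusted p of 0.22 and leaving out either PNPi+dG/rG+polyU library 0.070 or 0.13; with centring it was 0.38 (adjusted p = 7.74e-06) on the log2 scale. Tnfsf13b was lower (log2 fold change -1.07, adjusted p = 0.036), and the call was lost without any 1 of the 6 libraries of polyU, PNPi+dG/rG and PNPi+dG/rG+polyU, with adjusted p-values from 0.050 to 0.15, and with centring (-0.82, adjusted p = 0.11).

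The interaction subtracts the change that PNPi+dG/rG made on its own from the change it made on top of polyU, and it tested whether the 2 treatments combined to more than their sum on the log2 scale. For 7 members it was higher than 0 and for 0 lower (1, Tnfsf13b, at an unadjusted p under 0.05), against 11.8% and 38.9% of all genes. Centring adds 0.29 to every one of these differences; 8 members were then higher and 0 lower, against 24.1% and 17.0% of all genes. It was largest for Cd40, whose change was 0.13 without polyU and 3.78 with it, a difference of 3.65 ± 0.11 (SE, adjusted p = 4.65e-12). Tnf followed with 0.59 and 3.70, a difference of 3.11 ± 0.10 (adjusted p = 4.12e-10). The differences for Tnfsf15, Tnfrsf1b, Tnfsf9 and Fas were 2.59, 2.40, 2.33 and 1.07 (adjusted p at most 0.00013). That of Tnfsf10 was 0.87 (adjusted p = 0.023) and was not called without vehicle replicate 1, polyU replicate 1, PNPi+dG/rG replicate 1 or PNPi+dG/rG+polyU replicate 2 (0.61 to 0.78, adjusted p from 0.076 to 0.105), or with plain eBayes (adjusted p = 0.078). The intervals of Tnfrsf9 (-1.16 to 0.73) and Tnfrsf1a (-0.04 to 0.26) included 0 on the deposited scale, and Tnfsf13b gave -1.39 (adjusted p = 0.062). With centring Tnfrsf1a was at 0.40 and called (adjusted p = 0.00029).

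**Figure D3:**
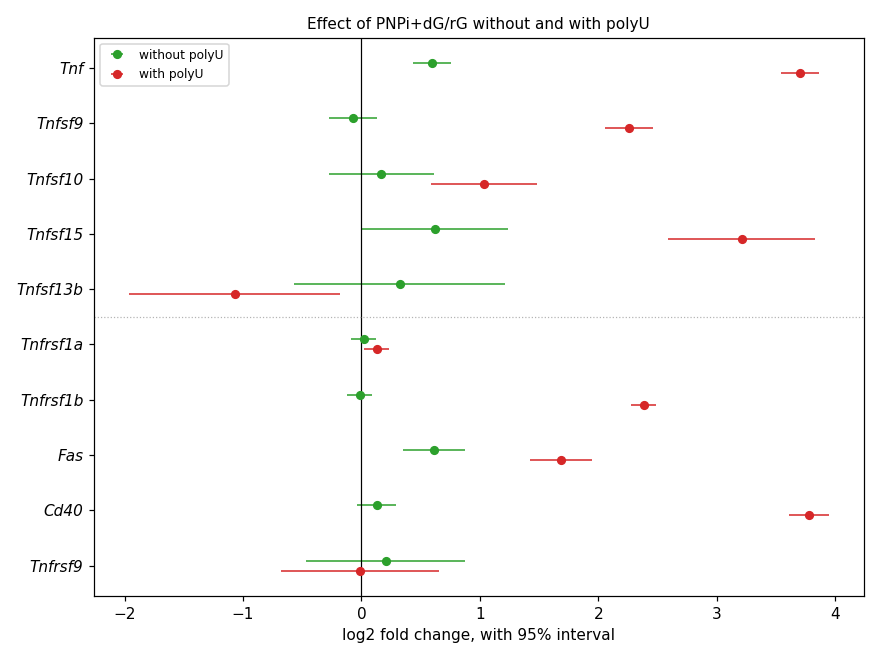
log2 fold change made by PNPi+dG/rG (x axis, with 95% interval) without polyU, against vehicle, and with polyU, against polyU, for each member. For Cd40 the 2 effects are 0.13 and 3.78 and for Tnf 0.59 and 3.70, whereas for Tnfrsf1a both lie between 0 and 0.13.

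The natural ligands and the synthetic one were compared directly, at the single dose of each that was used. PNPi+dG/rG+polyU gave 4 members higher and 3 lower than R848, against 53.9% and 16.9% of all genes, and 3 members did not pass the test. The higher ones were 3 ligands and Cd40: Tnfsf10 by 11.3-fold, Tnfsf13b by 2.67-fold, Tnf by 1.55-fold and Cd40 by 1.24-fold (adjusted p = 8.62e-10, 0.0069, 9.56e-06 and 0.0025). The lower ones were all receptors: Fas with a log2 fold change of -0.67, Tnfrsf1b with -0.39 and Tnfrsf1a with -0.24 (adjusted p = 0.00019, 5.69e-06 and 0.00041). Tnfsf15 differed by 0.01 with a 95% interval from -0.61 to 0.63, Tnfsf9 by -0.19 (-0.40 to 0.01, adjusted p = 0.085) and Tnfrsf9 by -0.72 (-1.39 to -0.05, adjusted p = 0.052).

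The scale bears on this comparison. Over all tested genes the median log2 fold change between the 2 groups was 0.31, and 6451 genes were called higher and 2022 lower; with each library centred on its median the counts were 3397 and 4486. On the centred scale Tnfsf10 (3.11), Tnfsf13b (1.04) and Tnf (0.25) were still called higher, Cd40 was at -0.07 and not called (adjusted p = 0.44), and Fas, Tnfrsf1b, Tnfrsf1a, Tnfrsf9 and Tnfsf9 were all called lower, from -1.10 to -0.58. The fibroblast markers of the R848 libraries also stand in this comparison; Col1a1 was at 51.6 and 58.3 CPM there and at 0.354 and 0.141 CPM in PNPi+dG/rG+polyU.

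**Figure D4:**
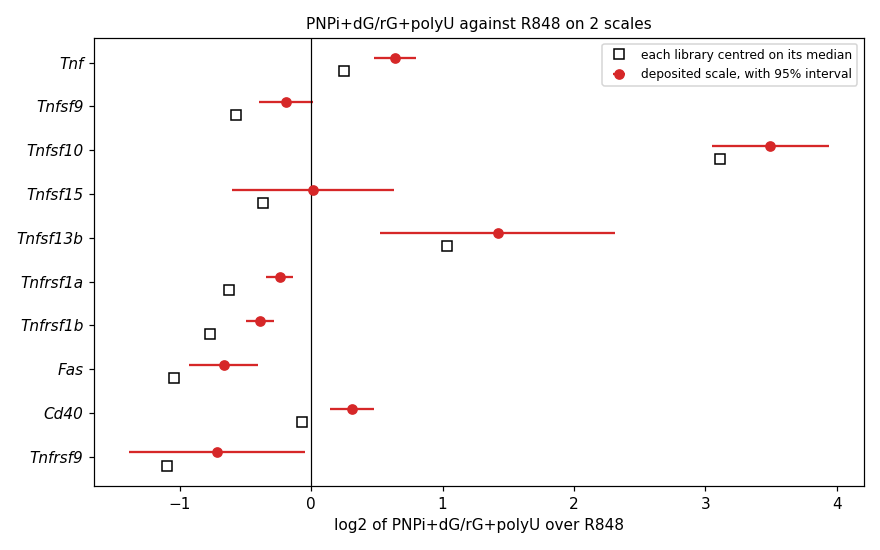
log2 of PNPi+dG/rG+polyU over R848 for each member (x axis), as deposited (filled points, with 95% interval) and with each library centred on its median (open squares). Tnfsf10 stands at 3.49 and 3.11 on the 2 scales, and Cd40 at 0.31 and -0.07.

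Among the binding partners of the members, Fasl (the ligand of Fas), Cd40lg (the ligand of Cd40) and Tnfrsf25 (the receptor of Tnfsf15) had 0 reads in every library, which allows up to 0.0781 to 0.212 CPM per library, and the BAFF receptors Tnfrsf13c and Tnfrsf17 had at most 2 reads in any library. Tnfrsf10b, a receptor of Tnfsf10 though not described here as its only one, lay between 3.03 and 4.29 CPM in all 10 libraries. Tnfrsf13b, another BAFF receptor, was at 38.7 and 36.9 CPM in vehicle, 36.2 in both libraries of PNPi+dG/rG+polyU, and 20.5 and 21.6 in R848. It fell by 0.84 on the log2 scale with R848 (adjusted p = 3.39e-08), where the median over all tested genes was -0.50. Centring adds 0.59 to this change, so most of the fall is not kept on the centred scale.

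Of 13 further ligands of the family, 6 passed the filter, and PNPi+dG/rG alone changed 0 of these past the threshold (1, Lta, at an unadjusted p under 0.05). In PNPi+dG/rG+polyU 2 rose and 3 fell against vehicle, and in R848 2 rose and 4 fell; the median log2 fold change was -0.93 and -2.00, and the counts were the same with each library centred on its median. Of all tested genes, 22.2% rose and 46.7% fell in PNPi+dG/rG+polyU, and 19.2% rose and 62.9% fell in R848. With centring these shares were 33.2% and 33.2%, and 43.0% and 34.6%. Tnfsf12, which encodes TWEAK, fell from 74.8 and 70.5 CPM in vehicle to 31.5 and 27.8 in PNPi+dG/rG+polyU and 11.8 and 15.0 in R848, log2 fold changes of -1.30 and -2.45 (adjusted p = 1.68e-08 and 4.75e-12). The 2 that rose in both were Tnfsf4, which encodes OX40 ligand (0.617 and 0.225 CPM in vehicle, against 3.68 and 5.21 in PNPi+dG/rG+polyU, 0.743 and 1.10 in R848), and Lta, the lymphotoxin gene, which had 1 and 0 reads in vehicle and at most 1.27 CPM in any library. Both are named outside the rule for named genes, after their values were seen. Both were below 1 CPM in vehicle and in PNPi+dG/rG and passed the filter only through other groups, so the filter favoured a rise over vehicle.

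Of 23 further receptors, 13 passed the filter. In PNPi+dG/rG+polyU 2 rose and 7 fell, and in R848 also 2 rose and 7 fell; the median log2 fold change was -0.22 and -0.43, close to those over all genes. With each library centred on its median the counts were 3 and 6, and 5 and 6. They stand against the shares of all genes given above for the further ligands. Tnfrsf14, which encodes HVEM, rose from 6.57 and 7.81 CPM in vehicle to 23.6 and 21.6 in polyU, 53.5 and 49.7 in PNPi+dG/rG+polyU, and 33.9 and 36.8 in R848 (3.16-fold, 7.20-fold and 4.94-fold). The other that rose was Tnfrsf8, which encodes CD30 and is named outside the rule after its values were seen; it had 6 and 11 reads in vehicle (0.337 and 0.618 CPM) and stood at 5.45 and 4.92 CPM in PNPi+dG/rG+polyU and 5.79 and 6.31 in R848 (log2 fold changes 3.51 and 3.73, adjusted p = 1.78e-07 and 4.91e-08). Tnfrsf8 too was below 1 CPM in vehicle and in PNPi+dG/rG and passed the filter only through other groups. Tnfrsf26 fell from 34.2 and 33.1 CPM to 5.10 and 5.07 in PNPi+dG/rG+polyU and 2.39 and 3.31 in R848 (log2 fold changes -2.73 and -3.58). Tnfrsf12a, the receptor of TWEAK, also fell, with log2 fold changes of -2.60 and -2.43. Tnfrsf22 (-1.89 and -2.46) and Tnfrsf23 (-1.95 and -1.92), which resemble Tnfrsf26 in sequence and could share reads with it, fell as well. Against R848, PNPi+dG/rG+polyU was higher in Tnfrsf13b (1.72-fold), Tnfrsf21 (1.49-fold), Tnfrsf14 (1.46-fold) and Tnfrsf11a (1.34-fold), the last of which encodes RANK; on the centred scale only Tnfrsf13b of these 4 was still called (the others at 0.19, 0.16 and 0.04).

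All 30 genes listed for signaling downstream of these receptors were tested. PolyU raised 16 and lowered 2, PNPi+dG/rG raised 2, PNPi+dG/rG+polyU raised 14 and lowered 5, and R848 raised 12 and lowered 11. Over all tested genes, polyU raised 20.6% and lowered 18.7%, and PNPi+dG/rG raised 0.409%. PNPi+dG/rG+polyU raised 22.2% and lowered 46.7% of all genes, and R848 raised 19.2% and lowered 62.9%. With each library centred on its median the counts of the 30 became 14 and 4, 0, 22 and 3, and 22 and 5. The centred shares of all genes were 17.2% and 22.8%, 0.301%, 33.2% and 33.2%, and 43.0% and 34.6%. The genes with the largest rises are known inhibitors and adaptors of the pathway. Traf1 rose 2.89-fold in polyU, 13.7-fold in PNPi+dG/rG+polyU and 14.3-fold in R848. Birc3, which encodes the ubiquitin ligase cIAP2, rose 2.64-fold, 11.2-fold and 14.4-fold. Tnfaip3, which encodes the deubiquitinase A20, was at 107 and 116 CPM in vehicle, against 782 and 803 in PNPi+dG/rG+polyU, and 1411 and 1454 in R848. Cflar, which encodes the caspase-8 inhibitor c-FLIP, rose 6.19-fold and 6.30-fold with the latter 2. With PNPi+dG/rG alone the 2 that rose were Birc3 (1.20-fold, adjusted p = 0.037) and Traf3 (1.19-fold, adjusted p = 0.046), and neither passed on the centred scale. Against R848, PNPi+dG/rG+polyU was higher in 15 of the 30 and lower in 7, or 8 and 16 with centring. The shares of all genes were 53.9% and 16.9%, or 28.4% and 37.5% with centring. On both scales PNPi+dG/rG+polyU was higher in Bid (4.19-fold), which caspase-8 cuts in cell death, in Mlkl (2.29-fold) and Ripk3 (1.97-fold), which carry out necroptosis, and in Rbck1 (1.97-fold), a subunit of the linear ubiquitin ligase. Bid was at 58.0 and 63.6 CPM in vehicle, against 39.0 and 45.2 in PNPi+dG/rG+polyU, and 9.29 and 10.8 in R848. Against vehicle, the log2 fold changes of Ripk3 were -0.34 in PNPi+dG/rG+polyU and -1.31 in R848. In the same order, those of Rbck1 were -0.12 (not called) and -1.10, and those of Mlkl 0.60 and -0.60.

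Of the 8 genes listed for shedding, which cut ligands and receptors from the surface or regulate that step, PNPi+dG/rG+polyU raised 3 and lowered 2, and R848 raised 6 and lowered 2 (4 and 2, and 6 and 2, with centring). Of all tested genes, PNPi+dG/rG+polyU raised 22.2% and lowered 46.7%, and R848 raised 19.2% and lowered 62.9%. With centring these shares were 33.2% and 33.2%, and 43.0% and 34.6%. Rhbdf2, which encodes the partner that brings ADAM17 to the surface, rose from 64.4 and 72.4 CPM in vehicle to 126 in both polyU libraries, 451 and 453 in PNPi+dG/rG+polyU, and 501 and 517 in R848. Adam17 itself, the TNF-converting enzyme, rose 1.28-fold in polyU and 1.96-fold in PNPi+dG/rG+polyU, and by 1.00 on the log2 scale in R848 (adjusted p = 3.17e-12); the last 2 groups differed by -0.03 (95% interval -0.12 to 0.06). That interval holds for the deposited scale only, because centring adds -0.38 to every log2 fold change of PNPi+dG/rG+polyU against R848. Timp3, an inhibitor of ADAM17 that fibroblasts also make, was at 36.4 and 31.0 CPM in R848 and at most 0.755 CPM in the other 8 libraries, alongside the fibroblast markers. Its fitted fold change, one of the 6 rises with R848, rests on a vehicle library at 0 reads and is not given.

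**Figure D5:**
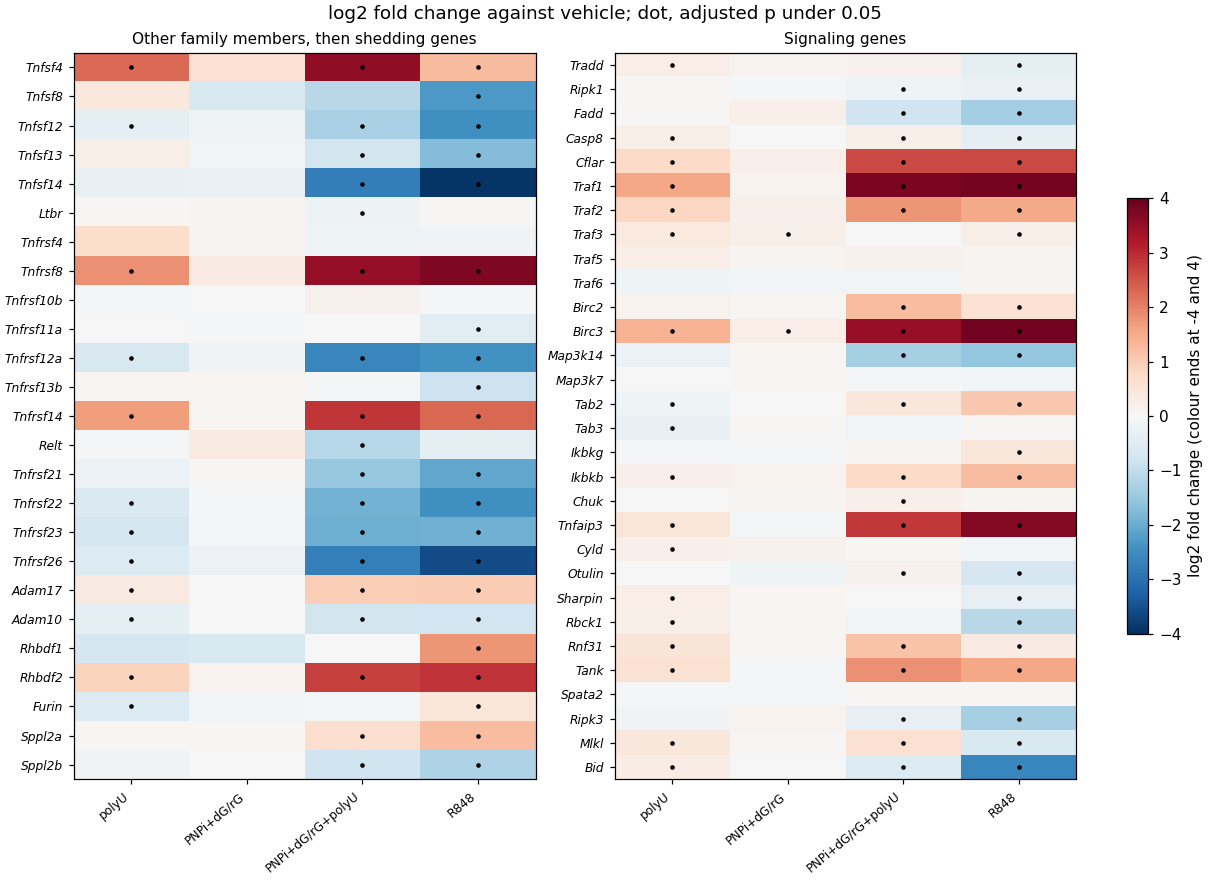
log2 fold change against vehicle (colour) of the other tested family members and the shedding genes (left) and of the 30 signaling genes (right), in the 4 treated groups; a dot marks an adjusted p under 0.05. Lta and Timp3, with a vehicle library at 0 reads, are left out; Traf1, Birc3, Tnfaip3, Cflar, Rhbdf2 and Tnfrsf14 are high and Tnfrsf26 and Tnfsf12 low in the PNPi+dG/rG+polyU and R848 columns alike.

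Among 8971 tested genes that reached 10 CPM in each library of some group, those most like Tnf were found by the root mean square difference in log2 fold change against vehicle over the 4 treated groups, which all share the 2 vehicle libraries. They were Socs1 (0.22), Bcl2a1a (0.40), one of several near-identical copies whose reads may be split, and Fpr2 (0.44). Those most like Tnfsf10 were Iigp1 (0.26), Rsad2 (0.26) and Ifit2 (0.27), whose mean levels were 1.57, 66.1 and 52.0 CPM in vehicle, 28.6, 1381 and 750 CPM in PNPi+dG/rG+polyU, and 3.64, 146 and 84.2 CPM in R848.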

How the data were processed

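Stranded mRNA libraries from 10 BMDM samples were sequenced in single reads. The authors deposited 1 table of CPM values, reads on genes scaled to a common total, with an offset of 0.0001 added; the sources name bcl2fastq 2.19.1.403, STAR 2.27a, GRCm38, the Ensembl annotation and Partek Flow. How reads on several genes were counted is not given in the sources used here. Where a few induced genes take up more of a library, CPM lowers its other values. Low values were whole multiples of the value of 1 read (100% within 0.1 read), which gave the depth and the reads quoted; these cover counting error only.

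Here limma 3.58.1 in R 4.3.3 (statmod 1.5.0; trend and robust eBayes) was fitted to log2 of the deposited values of all 10 libraries in 5 groups, for the 11978 genes that reached 1 CPM in 2 or more libraries, with Benjamini-Hochberg adjustment over all of them. The study's ANOVA on normalized values was replaced by limma because groups hold 2 libraries; the fit was tested on simulated data. Fold changes are on the log2(CPM + 0.0001) scale. Symbols and positions are from GENCODE M21, and 55394 of 55573 identifiers matched. The members and lists were chosen with earlier results of these data known. Named were all members, their binding partners, up to 4 genes per list and comparison (the largest changes among called genes that reached 10 CPM in each library of a compared group, with 1 direction in every pairing of libraries), and the 3 genes most like Tnf and Tnfsf10; a few named otherwise are marked. Alternatives were pseudocounts of 0.1 and 1 CPM, no filter, a filter on the mean, centring, plain eBayes, only the groups compared, the replicate block, a 2-fold minimum, and each library left out.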

Additional observations from a re-analysis of the deposited data

Results flagged for a closer look

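For 7 members the effect of PNPi+dG/rG differed between BMDMs with and without polyU, by the interaction term of limma (adjusted p under 0.05). The differences in log2 fold change were 3.65 for Cd40, 3.11 for Tnf, 2.59 for Tnfsf15, 2.40 for Tnfrsf1b, 2.33 for Tnfsf9, 1.07 for Fas and 0.87 for Tnfsf10. Over all tested genes the term was past the threshold and above 0 in 11.8%, and below 0 in 38.9%. It was past the threshold in 3 of 6 further ligands (0 above and 3 below 0) and 9 of 13 further receptors (2 and 7). The same held for 20 of 30 signaling genes (11 and 9) and 7 of 8 shedding genes (5 and 2). Among those named, Tnfaip3 (2.42), Traf1 (2.10), Birc3 (1.82), Cflar (1.68), Rhbdf2 (1.71), Tnfrsf8 (1.37), Tnfrsf14 (1.16), Traf2 (0.76), Adam17 (0.62) Furin (0.59) and Sppl2a (0.49) were above 0. Tnfrsf26 (-1.96), Tnfrsf12a (-1.82), Tnfrsf21 (-1.30), Tnfrsf22 (-1.25), Tnfrsf23 (-1.18), Bid (-0.84), Tnfsf12 (-0.76), Sppl2b (-0.68), Traf3 (-0.65), Rbck1 (-0.43), Adam10 (-0.36) and Ripk3 (-0.33) were below 0. These are on the deposited scale, and centring each library adds 0.29 to each of them. No group held the 4 libraries needed to look for single libraries that stand apart.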

How the results depend on the processing

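Depth limits Tnfsf13b and Tnfrsf9, which rest on 6 to 98 reads in every library, and in vehicle Tnfsf15, Tnfsf10 and Fas, with 6 to 40 reads. With 2 libraries a group, leaving out 1 leaves a lone library that is assumed to vary like the other groups. The 9 alternatives counted next leave out the 2-fold minimum. They include the crossed replicate numbers described below, which were chosen after seeing the data. Over 70 log2 fold changes of members and these 9 alternatives, 603 values kept their direction and their side of the threshold. Of the rest, 10 lost the call, 11 gained one and 6 changed sign. The causes were not tested.

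The sign changes came with centring: Tnfsf9 with polyU (-0.012), Tnfrsf1a with PNPi+dG/rG (-0.014), Tnfrsf9 in PNPi+dG/rG+polyU against polyU (0.24) and in the interaction (0.073), and Tnfsf15 (-0.37) and Cd40 (-0.074) in PNPi+dG/rG+polyU against R848. Members called higher with PNPi+dG/rG numbered 2, 1 with a pseudocount of 1 CPM, without the filter or with only the groups compared, and 0 with plain eBayes or with the 2-fold minimum. Members called lower in PNPi+dG/rG+polyU against polyU fell from 1 to 0 without the filter or with centring. Against R848, 5 instead of 3 were lower with centring or with only the groups compared, 0 were with the 2-fold minimum, and 2 instead of 4 were then higher. In the interaction 1 instead of 0 was lower (Tnfsf13b) with either pseudocount or only the groups compared, 8 instead of 7 were higher with centring, which gave Tnfrsf1a a call, and 6 were with plain eBayes or the 2-fold minimum.

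Leaving out 1 library gave 1 to 2 members higher with PNPi+dG/rG, 0 to 1 lower in PNPi+dG/rG+polyU against polyU, 3 to 5 lower against R848 and 0 to 1 lower in the interaction. Log2 fold changes whose sign turned ranged from -0.13 to 0.19 for Tnfsf9 with polyU and, with PNPi+dG/rG, from -0.23 to 0.090 for Tnfsf9, -0.090 to 0.42 for Tnfsf10, -0.28 to 0.92 for Tnfsf13b, -0.0306 to 0.0682 for Tnfrsf1a and -0.0683 to 0.0361 for Tnfrsf1b. They ranged from -0.94 to 0.26 for Tnfsf13b with PNPi+dG/rG+polyU, from -0.20 to 0.17 for Tnfrsf9 against polyU and from -0.027 to 0.051 for Tnfsf15 against R848; none of these was called.

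Same-numbered libraries did not clearly deviate together (correlation from -0.29 to 0.11 over 10 pairs of groups, 8459 genes). The correlation was -0.29 for vehicle with PNPi+dG/rG, -0.27 for polyU with PNPi+dG/rG and 0.11 for vehicle with polyU. With 2 libraries a group, this check cannot decide whether samples were paired, under these numbers or under others. With the replicate number as a block, 9 members were higher with PNPi+dG/rG+polyU, 2 with PNPi+dG/rG and 7 in the interaction, as without it, and no member's call changed. Crossing the numbers of PNPi+dG/rG, an alternative chosen after seeing the data, also gave 9, 2 and 7. Over all genes, polyU against vehicle gave 2467 higher and 2242 lower without a block, and 2626 and 2431 with the crossed numbers.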
